A study of Mus musculus with 5 samples.

Results

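Conventional dendritic cells take up antigen and show it to T cells. One of their branches, cDC1, is known for presenting antigen from dead or infected cells to CD8 T cells, and depends on the transcription factors IRF8, BATF3 and ID2. The genes described here are 10 markers of conventional dendritic cells, most of them known from cDC1: the chemokine receptor gene Xcr1, the surface proteins Cadm1, Cd24a, Cd36 and Dpp4, the lysosomal enzymes Plbd1 and Naaa, the intracellular traffic genes Wdfy4 and Snx22, and the adaptor Clnk. Their probe sets were taken wherever the platform annotation named the gene alone, which gave 23 probe sets of 10 genes among 34945 probe sets with 1 symbol.

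They were measured in 2 bone marrow progenitor populations of wild-type C57BL/6 mice, with no treatment named for either. The common dendritic cell progenitor (CDP, 3 arrays), from which dendritic cells arise, was sorted as lineage-negative, Sca-1-negative cells with intermediate c-Kit, positive for CD34, Flk2 and CD115 and without CD16 and CD32. The common myeloid progenitor (CMP, 2 arrays), an earlier cell with granulocyte, monocyte, erythroid and megakaryocyte potential, was sorted on high c-Kit and the absence of CD11c and CD115, with the remaining markers, Flk2 included, as for CDP. Between 10000 and 30000 sorted cells were used per RNA extraction. Age, sex and the number of mice per array are not given in the sources used here, so the p-values rest on a spread between arrays that may be technical. The series' title places the arrays in a study of IRF-8 and dendritic cell commitment, and the question addressed here is which markers of the mature cell were already measurable in its progenitor and which were still off.

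All values are log2 expression as deposited, with a lowest value of 2.26 shared by all arrays, and a probe set is called detected at log2 5 or more. Between 34.0% and 35.8% of all probe sets were detected per array. CDP 1 and CMP 1 were low in signal from the 5′ end of beta-actin (the 3′ and 5′ control probe sets differed by 8.05 and 7.35, against 1.81 to 4.48 on the others), so these 2 are called the 5′-poor arrays here, and differences are also given within them and within the other 3. CDP 2 alone carried transcripts of mature neutrophils, namely 9 of 15 neutrophil genes with a probe set, at up to 12.52 against at most 3.74 elsewhere. Of 7 tested genes of the sorting gate, Itgax, which encodes CD11c, rose in CDP from below detection, at least 4.67-fold (limma adjusted p = 0.0155), Kit fell by 2.57 ± 0.34 (adjusted p = 0.0318) and 5 did not pass. Csf1r, which encodes CD115, was among these 5, with a difference of 1.63 ± 0.35 (limma adjusted p = 0.0966). It was at 13.16, 12.94 and 12.95 in CDP and also bright in CMP, at 11.75 and 11.03.

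The 10 markers fell into 4 patterns. Cd24a, Wdfy4 and Dpp4 were detected in CDP and CMP alike, Plbd1 and Naaa on every CDP array and no CMP array, Cd36 on 1 array, and Xcr1, Cadm1, Snx22 and Clnk on none. No marker was detected in CMP only. Of the 10 genes, 5, 6 and 5 were detected on CDP 1, CDP 2 and CDP 3, and 3 on each CMP array. By probe set, 11 of 23 (47.8%) were below log2 5 on every array, against 61% of all 45037 probe sets.

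**Figure D1:**
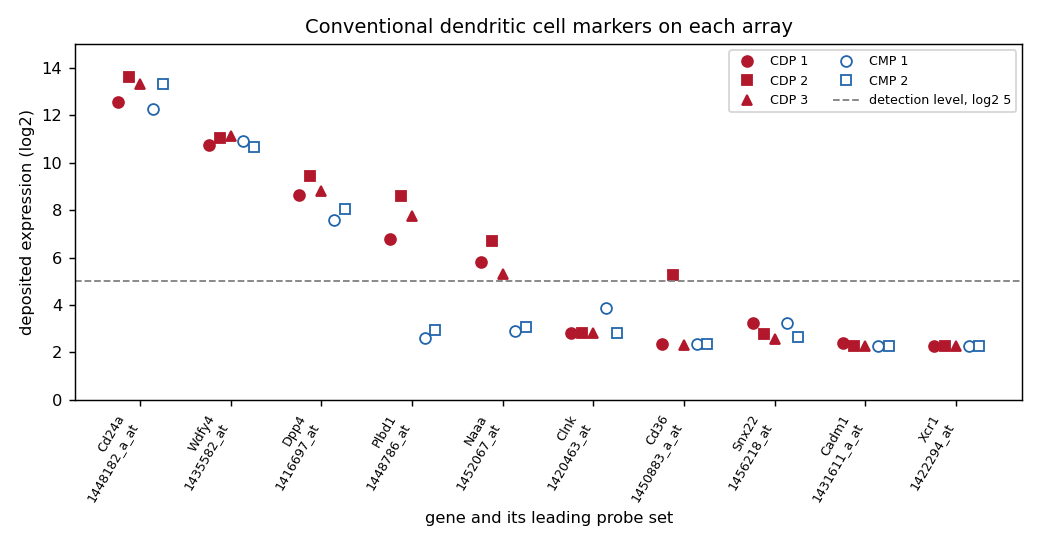
Deposited log2 expression (vertical axis) of the leading probe set of each of the 10 markers, with 1 point per array (filled red CDP, open blue CMP) and the detection level of log2 5 as a dashed line. The CDP points of Plbd1 and Naaa lie above the line and their CMP points below it, while Xcr1 lies at 2.26 on all 5 arrays.

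The 2 enzymes were detected in CDP and not in CMP. Plbd1 encodes a phospholipase B-like hydrolase of lysosomes and granules, and has 1 probe set, 1448786_at. It was at 6.79, 8.59 and 7.76 on CDP 1, CDP 2 and CDP 3, and at 2.61 and 2.94 on CMP 1 and CMP 2. Every CDP array was thus well above detection and both CMP arrays well below it. Group means were 7.71 ± 0.90 (SD, n = 3) and 2.78 ± 0.23 (SD, n = 2). Plbd1 rose in CDP by 4.94 ± 0.56 (log2, SE, limma adjusted p = 0.0217). Since CMP was below detection, the fold is only a lower bound: Plbd1 was at least 6.55-fold higher in CDP, with values below log2 5 set to 5. The difference was 4.18 within the 5′-poor arrays and 5.23 within the rest.

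Naaa encodes the lysosomal amidase that breaks down palmitoylethanolamide, a lipid with anti-inflammatory action. Its leading probe set, 1452067_at, was at 5.82, 6.68 and 5.33 on the CDP arrays and at 2.91 and 3.06 on the CMP arrays. As for Plbd1, the populations did not overlap, although CDP 3 was only just above the detection level. Means were 5.94 ± 0.68 in CDP (SD, n = 3) and 2.98 ± 0.11 in CMP (SD, n = 2). Naaa rose in CDP by 2.96 ± 0.46 (SE, adjusted p = 0.0453), or at least 1.92-fold. The difference was 2.91 within the 5′-poor arrays and 2.94 within the rest. Its other probe sets were mostly below detection. Probe set 1452068_at was at 5.19, 4.06 and 4.39 in CDP and 3.99 and 3.80 in CMP, higher on each CDP array than on either CMP array but detected on CDP 1 only and not tested, and 1430819_at was at the lowest value on all 5 arrays.

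Plbd1 and Naaa were 2 of the 10 tested marker probe sets, and the 2 that were called higher in CDP, where 1.31% of all 16552 tested probe sets were (1.73% were called in either direction). None was called lower (limma, and 0 at an unadjusted p under 0.05), against 0.423% of all. A probe set was tested where at least 2 arrays reached log2 5, and both of these passed through CDP alone, so that they had to differ in order to be tested; the count is a description and not support. Both calls were lost when single arrays were left out. Without CDP 2, CDP 3, CMP 1 or CMP 2 in turn the adjusted p of Plbd1 became 0.104, 0.152, 0.146 and 0.135, and it was 0.0339 without CDP 1. That of Naaa lay between 0.0953 and 0.182 whichever array was left out.

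Plbd1 is also expressed by neutrophils and monocytes, and both of these marker lists varied between arrays. Of 15 neutrophil genes with a probe set, 12 were detected on CDP 2 and 3 or 4 on each other array. None of the 15 was at the lowest value throughout. Their summed linear signal ran from 27228 to 45911 in CDP and from 38100 to 46490 in CMP. Most of it on each array came from Mpo and Prtn3, both bright in both populations (Mpo at 14.21 to 14.61 in CDP and 14.83 and 15.04 in CMP). The sum therefore says little of the 9 genes detected on CDP 2 alone, which were at most 3.74 on every other array, CMP included. Without CDP 2, the array with the mature neutrophil transcripts, the Plbd1 difference was 4.50 and its bound 4.84-fold. Of 14 monocyte and macrophage genes, 10 or 11 were detected per CDP array and 6 or 8 per CMP array, with a summed signal of 32725 to 42764 in CDP and 12746 to 17469 in CMP, and Marco at the lowest value throughout. Of the 10 tested, F13a1, Ccr2, Cx3cr1 and Fn1 rose and 6 did not pass. Csf1r, which encodes CD115 of the sorting gate, was among these 6 and is part of the summed signal. Whether the gate bears on that signal was not tested. The part of monocyte transcripts in the Plbd1 and Naaa values was not tested. In RNA pooled from sorted cells, fewer cells of a kind and less RNA per cell cannot be told apart.

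Among 8448 other genes, those whose profiles over the 5 arrays were most like that of Plbd1, by the root mean square difference of deviations from each gene's own mean, were S100a6 (0.15 log2), Rnf144b (0.34) and Fn1 (0.35). S100a6 was at 8.05, 9.74 and 9.05 on the CDP arrays and at 3.98 and 3.86 on the CMP arrays. For Naaa they were Ms4a4b (0.27), Fcgrt (0.34) and Cx3cr1 (0.35). Ms4a4b was at 9.60, 10.01 and 9.36 in CDP and 6.995 and 6.89 in CMP, so it was detected in both populations. With 5 arrays in 2 groups, this likeness consists mostly of the difference between the groups.

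Upstream sequences of 4 markers are shown because they span the patterns: Plbd1 and Naaa, which rose together, Dpp4, detected in both populations, and Xcr1, detected in neither. Each runs 5′ to 3′ over the 250 bases before the annotated start (RefSeq, GRCm38.p6). Capitals mark matches to any of 6 motifs on either strand. These were the PU.1-type ETS core GAGGAA, the ETS-IRF composite element GGAA with GAAA 2 bases after it, the interferon-stimulated response element GAAA with GAAA 2 bases after it, the AP-1 site TGANTCA, the C/EBP-type site TTGCNNAA and the TATA box TATAAA. The first 3 share letters and can overlap.
Plbd1, chr6:136661894-136662143, minus strand: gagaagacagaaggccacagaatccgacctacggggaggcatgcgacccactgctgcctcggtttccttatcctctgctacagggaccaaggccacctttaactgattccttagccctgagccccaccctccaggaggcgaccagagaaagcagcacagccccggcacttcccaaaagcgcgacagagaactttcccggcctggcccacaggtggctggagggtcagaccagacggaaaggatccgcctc
Naaa, chr5:92278182-92278431, minus strand: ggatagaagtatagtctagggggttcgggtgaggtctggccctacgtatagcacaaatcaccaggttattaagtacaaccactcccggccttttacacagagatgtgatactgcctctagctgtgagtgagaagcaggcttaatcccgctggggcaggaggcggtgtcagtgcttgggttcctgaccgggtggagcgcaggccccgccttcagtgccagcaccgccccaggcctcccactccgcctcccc
Dpp4, chr2:62412232-62412481, minus strand: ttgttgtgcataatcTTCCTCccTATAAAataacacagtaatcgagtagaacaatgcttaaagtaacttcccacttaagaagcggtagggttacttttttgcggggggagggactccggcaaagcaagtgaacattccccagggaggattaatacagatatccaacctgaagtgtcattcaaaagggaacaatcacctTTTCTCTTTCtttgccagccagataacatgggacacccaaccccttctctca
Xcr1, chr9:123862030-123862279, minus strand: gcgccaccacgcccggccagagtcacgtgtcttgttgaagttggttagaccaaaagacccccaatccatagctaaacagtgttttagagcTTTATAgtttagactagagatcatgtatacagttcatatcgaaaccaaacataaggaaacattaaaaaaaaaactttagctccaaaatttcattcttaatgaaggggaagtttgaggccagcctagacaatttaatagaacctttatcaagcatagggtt

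None of the 6 motifs was found in the windows of Plbd1 and Naaa, which had a GC content of 60.8% and 59.2%. The Dpp4 window (43.6% GC) held the interferon-stimulated response element at 52 to 43 bases before the start, as TTTCTCTTTC on the printed strand, with the ETS core at 235 to 230 and a TATA box at 227 to 222. The Xcr1 window (38.8% GC) held only a TATA box on the opposite strand, 160 to 155 bases before the start. Over all 32851 windows of this length, 23.3% held the ETS core, 2.30% the composite element, 2.98% the response element, 6.75% the AP-1 site, 9.56% the C/EBP-type site and 12.4% the TATA box. The table had an entry for 8 of the 10 markers, and the windows of Wdfy4, Cd36 and Snx22 had no match while that of Clnk held 1 ETS core. A match is only a run of letters and says nothing of binding.

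Dpp4, the surface peptidase CD26, was detected in both populations and its 4 probe sets all gave a positive difference, none of which passed. The brightest by mean, 1416697_at, was at 8.65, 9.42 and 8.82 on CDP 1, CDP 2 and CDP 3 and at 7.59 and 8.06 on CMP 1 and CMP 2. The lowest CDP array lay above the highest CMP array. The difference was 1.14 ± 0.38 (SE, adjusted p = 0.226), or 2.20-fold, with a 95% interval of 0.21 to 2.06 before adjustment over probe sets. It was 1.06 both within the 5′-poor arrays and within the rest.

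Probe set 1441342_at of Dpp4 was at 5.81, 5.83 and 6.46 in CDP and below detection in CMP, at 4.67 and 4.48. Its groups did not overlap either, and its difference of 1.46 ± 0.35 (adjusted p = 0.123) was at least 2.05-fold. This was the only marker probe set that gained a call in another setting: with the 5′-poor arrays as a block its adjusted p was 0.0439, where its 15 settings ranged from 0.0439 to 0.437. In that setting 1438 probe sets were called in all, against 287.

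The remaining Dpp4 probe sets were less clear. Probe set 1438279_at straddled the detection level in CDP, at 4.55, 5.69 and 5.03, and was at 4.17 and 4.33 in CMP, with a difference of 0.84 ± 0.42 (adjusted p = 0.403). Probe set 1459973_x_at, whose suffix marks possible matches to other transcripts, was at 9.51, 7.81 and 7.94 in CDP and 8.14 and 6.93 in CMP. It was highest on CDP 1 and CMP 1, the 5′-poor arrays, so its groups overlapped (0.89 ± 0.65, adjusted p = 0.585) while the difference was 1.37 between those 2 arrays and 0.95 between the others. Its difference went to 0.28 to 1.495 with 1 array left out, the lower value without CMP 2 and the higher without CMP 1. T cells also express Dpp4, and of 10 T and NK cell genes with a probe set none was detected on any array, Cd3e and Cd3g being at the lowest value throughout. The part of T cells or other cells in the Dpp4 values was not tested.

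**Figure D2:**
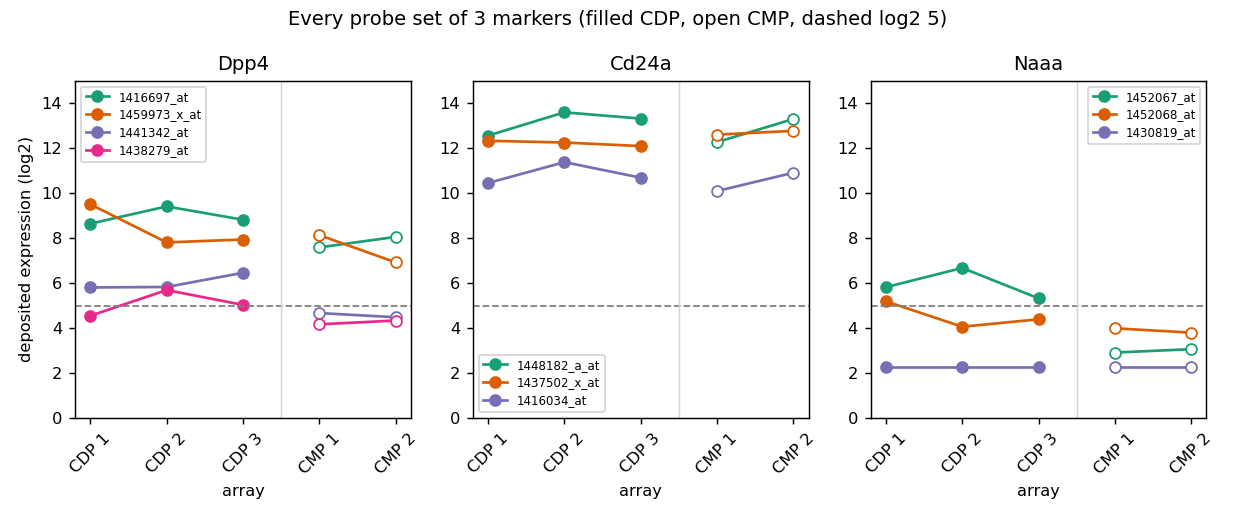
Deposited log2 expression (vertical axis) of every probe set of Dpp4, Cd24a and Naaa on each array (horizontal axis), with filled points for CDP, open points for CMP and a dashed line at log2 5. Of the Dpp4 probe sets, 1459973_x_at alone is highest on CDP 1 (9.51), and of the Naaa probe sets only 1452067_at is above the line on all 3 CDP arrays.

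Cd24a encodes a small sugar-coated surface protein that separates cDC1 from cDC2 and is also made by B cell precursors, erythroid cells and neutrophils. It was bright on every array, and none of its 3 probe sets passed the test between the populations. Probe set 1448182_a_at was at 12.57, 13.61 and 13.33 in CDP and 12.28 and 13.31 in CMP. CDP and CMP overlapped, and the lowest array of each was its 5′-poor array. The difference was 0.37 ± 0.49 (adjusted p = 0.782, 95% interval -0.81 to 1.56). Probe set 1416034_at also overlapped and was also lowest on the 5′-poor arrays, at 10.46, 11.39 and 10.70 in CDP and 10.10 and 10.91 in CMP (0.34 ± 0.44, adjusted p = 0.782, interval -0.73 to 1.41).

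The third Cd24a probe set, 1437502_x_at, went the other way. It was at 12.34, 12.26 and 12.10 in CDP and 12.62 and 12.78 in CMP, with all CDP arrays below both CMP arrays and a difference of -0.46 ± 0.30 (adjusted p = 0.526, interval -1.20 to 0.27). All CDP arrays lay below both CMP arrays on 11% of all tested probe sets. The direction for Cd24a therefore depends on the probe set, and without CMP 1 the other probe sets turned to -0.14 and -0.067. Without CDP 2, the array with the mature neutrophil transcripts and the highest for both of these probe sets, their differences were 0.16 and 0.069. Erythroid cells also make Cd24a. Of 12 erythroid genes, 2, 5 and 3 were detected on the CDP arrays and 4 and 2 on the CMP arrays. Their summed signal was 6375 to 14102 in CDP and 4870 to 5037 in CMP, with Hba-a1 at the lowest value throughout. Tfrc gave most of this sum on every array, at 13.57, 13.49 and 12.58 in CDP and 11.97 and 12.21 in CMP. The sum therefore says little of the other erythroid genes. Car2 and Ermap, also tested, had lower means in CDP (7.43 against 8.43 and 4.94 against 6.01), with overlapping groups. None of the 3 tested erythroid genes passed. Of 10 B cell genes 3 or 4 were detected per CDP array and 1 per CMP array, with a summed signal of 288 to 552 against 152 to 187. Cd79a was at the lowest value throughout, but Cd79b was detected on every array. The 3 tested B cell genes, Cd79b, Vpreb1 and Cd22, were higher in CDP by 1.31, 1.91 and 3.71, and none passed. The part of erythroid cells, B cell precursors and neutrophils in the Cd24a values was not tested.

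Wdfy4, a BEACH-domain protein that cDC1 need to cross-present antigen, was detected on every array of both progenitors. Its probe set 1435582_at was at 10.74, 11.03 and 11.14 in CDP and 10.90 and 10.65 in CMP. All 5 arrays lay within 0.50 of each other. The difference was 0.20 ± 0.32 (adjusted p = 0.828), with a 95% interval of -0.58 to 0.97. Its other probe set, 1446867_at, was at the lowest value on all arrays.

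**Figure D3:**
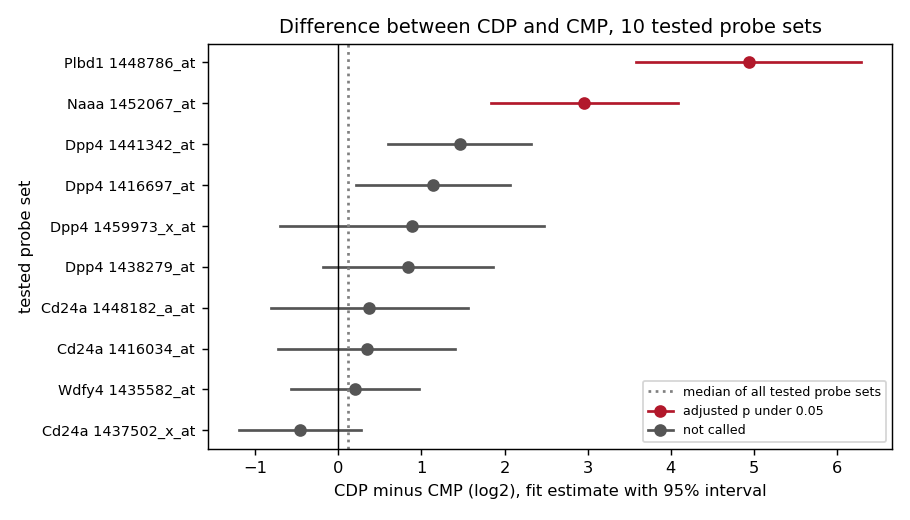
CDP minus CMP in log2 units (horizontal axis) for each of the 10 tested marker probe sets, as the limma estimate with its 95% interval, red where the adjusted p was under 0.05; the dotted line is the median of all tested probe sets (0.12). Plbd1 (4.94) and Naaa (2.96) are the 2 called, and since their CMP arrays were below detection their folds are known only as bounds (at least 6.55-fold and 1.92-fold); the other 8 estimates run from -0.46 to 1.46.

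Over the 10 tested marker probe sets, 9 differences were positive and 1 negative, with a median of 0.86 against 0.12 over all tested probe sets, given as a description. On 5 of the 10 every CDP array lay above every CMP array, which was so for 21.2% of all tested probe sets, and 3 of these 5 belong to 1 gene, Dpp4. Among the 5, Plbd1, Naaa and 1441342_at of Dpp4 passed the filter through CDP alone, as did 1438279_at, which leaves 1416697_at as the one that CMP arrays also passed.

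Cd36, a scavenger receptor for fatty acids and dying cells that is found on cDC1, macrophages, platelets and erythroid cells, was detected on CDP 2 alone. Probe set 1450883_a_at was at 2.34, 5.28 and 2.31 on the CDP arrays and 2.34 and 2.35 on the CMP arrays. Probe set 1423166_at was at 4.09 on CDP 2 and between 2.29 and 2.30 elsewhere, and 1450884_at was at the lowest value throughout. The 4 arrays other than CDP 2 were thus alike, and CDP 1 and CDP 3 did not stand apart from CMP. CDP 2 also carried other transcripts that were below detection elsewhere. Beside the neutrophil genes these included the erythroid genes Slc4a1 (9.89) and Alas2 (8.80), the macrophage adhesion gene Vcam1 (5.86) and the eosinophil granule gene Prg2 (6.87), none above 2.71 on any other array, and the dendritic cell factors Zbtb46 (5.54, at most 4.24 elsewhere) and Spib (5.20, at most 4.46 elsewhere). Platelet genes did not follow this, with 2 of 10 detected on CDP 2 and 3 on each CMP array, and a summed signal of 176 to 197 in CDP and 266 to 361 in CMP, with Gp6 and Ppbp at the lowest value throughout. The part of these other cells in the Cd36 value was not tested.

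Xcr1, Cadm1, Snx22 and Clnk were still off in CDP as measured here. Xcr1 encodes the receptor for the chemokine XCL1, which lets cDC1 meet CD8 T cells and NK cells, and its probe set 1422294_at was at the lowest value of 2.26 on all 5 arrays. Cadm1, an adhesion molecule that binds CRTAM on activated T cells, has 4 probe sets, none above 2.39 on any array and 2 of them at the lowest value throughout. Snx22, a sorting nexin with a lipid-binding PX domain, was at 3.24, 2.77 and 2.56 in CDP and 3.23 and 2.64 in CMP (1456218_at). Its highest values were on CDP 1 and CMP 1, and the populations overlapped. Clnk, an adaptor of the SLP-76 family known from mast cells and NK cells, was at 2.81 on all CDP arrays and CMP 2 and at 3.89 on CMP 1 (1420463_at). None of these probe sets was tested, and a value below log2 5 says that the transcript was not detectable on these arrays, not that it was absent.

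Further genes of conventional dendritic cells, from lists that leave out the 10 markers, were read on the same arrays. Of 20 other cDC1 genes listed, Clec9a, Tlr11, Ifi205, Sept3 and Cxx1a had no probe set under that name alone and could not be read. Of 15 other cDC1 genes with a probe set, 12 were below log2 5 on every array, among them Cd8a, Itgae, Ly75, Tlr3 and Cd207. By probe set 61% of all 45037 were below that level, and the share over genes was not counted. The other 3 genes were tested, and none of the 3 passed (limma). The inhibitory receptor Btla was at 9.44 ± 0.25 in CDP (SD, n = 3) and 7.72 ± 0.09 in CMP (SD, n = 2), a difference of 1.72 ± 0.32 (SE, adjusted p = 0.068). The endosomal GTPase Rab7b was at 1.11 (adjusted p = 0.156) and the lysosomal thioesterase Ppt1 at 0.40 (adjusted p = 0.589). All 3 were detected on every array of both populations.

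Of 15 cDC2 genes with a probe set, 9 were below log2 5 on every array and 6 were tested. The lectin Clec10a rose, at 8.57, 9.41 and 9.15 in CDP and 4.16 and 5.73 in CMP (4.10 ± 0.55, adjusted p = 0.0329), and 5 did not pass. Clec10a was at least 12.8-fold higher. Sirpa, the surface receptor by which cDC2 are sorted, was at 10.36 ± 0.32 in CDP and 8.54 ± 0.19 in CMP (1.82 ± 0.34, adjusted p = 0.068). Of 20 genes shared by conventional dendritic cells, 10 were below log2 5 on every array, P2ry10 and Itgax rose and 7 of 9 tested did not pass. P2ry10, a receptor for lysophospholipids, was at 7.82, 8.23 and 7.86 in CDP and 3.45 and 3.37 in CMP, at least 7.83-fold higher (adjusted p = 0.00828). Itgax belongs to the sorting gate. The same filter favoured genes high in CDP in these lists. Over genes, at 1 leading probe set each, 1.67% of 8449 were called higher in CDP and 0.473% lower.

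Most transcription factors listed for the cDC1 branch and its alternatives were detected in both populations. Of 12, only Batf3 stayed below log2 5 on every array, at 3.08 or less, and 10 were tested. Irf8 was at 15.07, 15.17 and 15.26 in CDP and 12.22 and 12.89 in CMP and rose by 2.61 ± 0.34 (adjusted p = 0.0318). Id2, which binds and blocks E proteins, was at 9.99, 9.37 and 9.49 in CDP and 5.85 and 5.07 in CMP and rose by 4.16 ± 0.40 (adjusted p = 0.0155). The other 8 did not pass, among them Nfil3 (1.57, adjusted p = 0.197) and Bcl6 (1.45, adjusted p = 0.121). Zbtb46, a factor of the conventional dendritic cell lineage, was at 4.24, 5.54 and 3.43 in CDP and 2.38 and 2.57 in CMP, above detection on CDP 2 only and not tested. With the 5′-poor arrays as a block, Btla, Sirpa and Bcl6 also passed (adjusted p = 0.0188, 0.0125 and 0.0276), as did Klf4, Cst3 and H2-Aa, all higher in CDP. In that setting Cebpa (-1.70, adjusted p = 0.0152) and Tnfaip3 (-1.32, adjusted p = 0.0424) were called lower. The calls of Clec10a, Irf8 and Id2 were lost when any 1 array was left out, and those of P2ry10 and Itgax when any array but CDP 1 was.

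**Figure D4:**
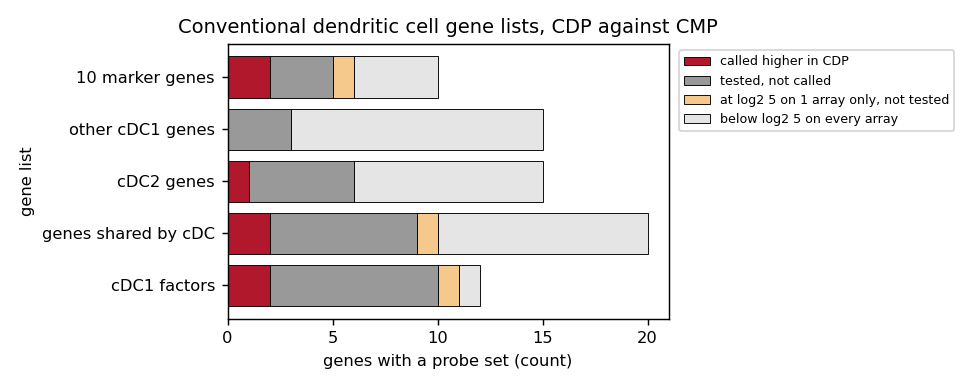
Number of genes with a probe set (horizontal axis) in the 10 markers and in 4 further lists of conventional dendritic cell genes, split into genes called higher in CDP, tested and not called, detected on 1 array only, and below log2 5 on every array. In the fit without a block no gene was called lower in CDP in any of the 5 lists, and 12 of 15 other cDC1 genes were below log2 5 on every array, against 1 of 12 cDC1 factors.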

How the data were processed

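As deposited, values are log2 expression of 45037 probe sets (64 controls left out) on 5 Affymetrix mouse arrays. They were made with GCRMA, per the submitters' processing notes, a method that removes a sequence-dependent background, equalizes the arrays' distributions and combines each set's probes; its version and the genome build are not given in the sources used here. Per the labels' protocols, RNA was amplified over 2 cycles. Groups came from sample titles. The title of CDP 3 begins differently from the others, but its remaining labels agree.

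The values were not normalized again. Probe sets with at least 2 arrays at log2 5 (16552) were fitted with limma 3.58.1 (R 4.3.3; lmFit, eBayes, 2-sided), CDP against CMP, and p-values adjusted by Benjamini-Hochberg over all of them, with a threshold of 0.05. The leading probe set of a gene is its brightest tested one or, where none was tested, its brightest. The procedure was tested on simulated data. Named were all 10 markers, up to 4 called genes per list with markers at the lowest value, and the 3 most alike genes per called marker. Further genes were picked after their values were seen. These were Btla, Rab7b, Ppt1, Sirpa, Nfil3, Bcl6, Batf3, Zbtb46, the undetected cDC1 genes and those detected on CDP 2 alone. Klf4, Cst3, H2-Aa, Cebpa, Tnfaip3, Csf1r, Mpo, Prtn3, Tfrc, Car2, Ermap, Cd79b, Vpreb1 and Cd22 were picked in the same way. Markers and lists were chosen with earlier results of these data known. The number of arrays limits the precision.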

Additional observations from a re-analysis of the deposited data

How the results depend on the processing

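Across 16 other settings, 149 of 151 differences of the tested marker probe sets kept their direction. The 2 that reversed were Cd24a probe sets, neither called: with 1 array left out, 1448182_a_at ran from -0.14 (without CMP 1) to 0.89 (without CMP 2) and 1416034_at from -0.067 to 0.75 (the same arrays). Of the 2 marker probe sets called higher in CDP, 1 remained, Plbd1, with the filter at log2 4, the filter at log2 7, trended variance and array weights, and 0 without a filter (limma, 4 higher and 1 lower at an unadjusted p under 0.05). Leaving out 1 array gave 0 to 1. The filter at log2 7 left Naaa untested. Over all probe sets, 287 were called, against 55 without a filter and 1438 with the 5′-poor arrays (CDP 1 and CMP 1) as a block. Leaving out 1 array gave 0 to 44, the highest without CDP 1; the 4 settings with 0 calls in limma had 1490 to 2766 probe sets, and 3 or 4 marker probe sets, at an unadjusted p under 0.05. With the replicate number as a block 608 were called, Plbd1 and Naaa again among them and no other marker; same-numbered arrays deviated together (r = 0.61 and 0.58 over tested probe sets), but the labels tie the numbers to no animal or day. Marker probe sets below detection on every array numbered 10, 14 and 16 at a level of log2 4, 6 and 7, against 11. With the 5′-poor arrays as a block the wider lists held 1 other cDC1 gene, 3 cDC2 genes, 4 shared genes and 3 factors called higher, and 1 cDC2 gene and 1 factor called lower. Counts for the wider lists were added after the data were seen; with the replicate number as a block they held 1 other cDC1 gene, 3 cDC2 genes, 3 shared genes and 2 factors called higher and 1 factor called lower.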
